A study of Mus musculus with 6 samples.

Results

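The 9 genes described here form the core loop of the circadian clock: Arntl, Clock, Npas2, Per1, Per2, Per3, Cry1, Cry2 and Ciart. They were taken by symbol from the 22274 genes of the deposited table, and all 9 were found and tested. RNA was sequenced from livers of C57 mice infected with Ad-Dyrk1b, a virus that overexpresses the mouse Dyrk1b gene (3 libraries), or with the control adenovirus Ad-EGFP (3 libraries), so that every animal carried a virus. Dyrk1b encodes a dual-specificity kinase, and the series title concerns its part in the liver in systemic glucose homeostasis. The age and sex of the mice, the virus dose, the feeding state and the hour at which livers were taken were not stated in the labels. Nothing states that each library is a mouse of its own, so the p-values cover the spread between libraries, part of which may be technical.

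The circadian clock is a feedback loop of transcription. BMAL1, the product of Arntl, pairs with CLOCK or with its relative NPAS2 and binds E-box sequences, which switches on the Per and Cry genes and Ciart. The PER, CRY and CIART (also called CHRONO) proteins return to the nucleus and repress BMAL1 and its partner. A side loop of REV-ERB repressors and ROR activators sets the level of Arntl and Npas2, and in mouse liver most of these transcripts rise and fall over the day. DYRK1A, a relative of DYRK1B, is known in mouse to phosphorylate CRY2 and, with GSK3B, to mark it for degradation, which mRNA levels do not measure.

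Promoter sequences are shown for Ciart and Per1, the genes called lower, and for Cry1 and Per3, since these 4 windows hold most of the clock motifs found among the members. Each window of 300 bases runs from 250 bases before to 50 after the RefSeq start of the gene (GRCm38.p6, written 5′ to 3′ on the strand of the gene, all but Per1 on the minus strand). The windows are chr3:95882179-95882478 for Ciart, chr11:69098699-69098998 for Per1, whose start here lies inside the annotated gene and is the first of 2 in RefSeq, chr10:85185005-85185304 for Cry1 and chr4:151044616-151044915 for Per3. Capitals mark E-boxes (CACGTG), E-prime boxes (CACGTT, here read as its reverse complement AACGTG), D-boxes (TTATGNAA) and ROR half-sites (AGGTCA, here read as its reverse complement TGACCT).
Ciart: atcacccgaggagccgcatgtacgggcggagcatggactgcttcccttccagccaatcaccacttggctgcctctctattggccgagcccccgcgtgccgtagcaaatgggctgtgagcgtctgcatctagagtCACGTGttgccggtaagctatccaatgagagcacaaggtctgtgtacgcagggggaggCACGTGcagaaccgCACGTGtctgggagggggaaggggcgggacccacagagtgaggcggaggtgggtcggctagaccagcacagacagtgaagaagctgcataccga
Per1: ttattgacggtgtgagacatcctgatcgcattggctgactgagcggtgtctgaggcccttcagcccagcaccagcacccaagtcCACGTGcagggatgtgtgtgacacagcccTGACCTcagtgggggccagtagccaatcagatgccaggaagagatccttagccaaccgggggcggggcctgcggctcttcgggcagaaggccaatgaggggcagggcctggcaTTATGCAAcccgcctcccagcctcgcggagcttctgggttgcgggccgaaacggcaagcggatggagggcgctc
Cry1: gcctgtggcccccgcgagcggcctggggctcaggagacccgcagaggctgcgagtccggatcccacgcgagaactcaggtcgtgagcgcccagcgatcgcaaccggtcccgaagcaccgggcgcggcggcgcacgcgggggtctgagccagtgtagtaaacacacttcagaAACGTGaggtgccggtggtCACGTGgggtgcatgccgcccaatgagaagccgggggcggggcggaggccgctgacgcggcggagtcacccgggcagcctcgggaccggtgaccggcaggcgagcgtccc
Per3: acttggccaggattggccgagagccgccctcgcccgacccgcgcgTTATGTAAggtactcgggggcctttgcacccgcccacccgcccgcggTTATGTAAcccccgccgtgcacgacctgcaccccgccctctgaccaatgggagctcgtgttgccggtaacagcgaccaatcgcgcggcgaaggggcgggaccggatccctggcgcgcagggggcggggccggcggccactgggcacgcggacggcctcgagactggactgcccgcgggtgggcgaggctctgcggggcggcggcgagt

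The Ciart window held 3 E-boxes, which began 116, 58 and 44 bases before the start. Among all 32851 RefSeq promoter windows of this length, 7.15% held an E-box on either strand and 29 windows, or 0.0883%, held 3 or more. Cry1 had an E-box 60 bases and an E-prime box 79 bases before the start, and Per1 had an E-box 166 bases before it. An E-prime box was present in 4.68% of all windows, and Cry2 also had 1. Per3 had 2 D-boxes, at 205 and 158 bases before the start, and Per1 had 1 at 24 bases, against 3.38% of all windows with a D-box. The ROR half-site, in 16.3% of all windows, was found once each in windows of Arntl, Clock and Per1. The cAMP-response element TGACGTCA, in 1.79% of all windows, was in none of the member windows searched. Windows were found for 8 of the 9 members (12 windows), and Per2, which had none, was not searched. None of these motifs lay in the Npas2 window. A match describes letters in the window and is not a measured binding site.

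The viral gene was checked first. Dyrk1b stood at 62.2, 101 and 96.5 FPKM (the deposited measure of level, scaled to gene length and library size) in the Ad-Dyrk1b libraries, against 3.81, 4.97 and 4.16 FPKM in the Ad-EGFP libraries. This is a log2 fold change of 4.49 ± 0.24 (SE; edgeR adjusted p = 1.33e-05). Total counts per library ranged from 17326516 to 20024888, and the second principal component set Ad-Dyrk1b replicate 3 apart (-26.7, against 11.3 and 17.2 in the other Ad-Dyrk1b libraries). Marker counts were summed and scaled to library size alone. These sums were higher in every Ad-Dyrk1b library than in every Ad-EGFP library for bile duct cells, T and NK cells and erythroid cells. For hepatocytes the sums were lower. Bile duct markers summed to 317 to 433 CPM (counts scaled to library size) in Ad-Dyrk1b livers and 200 to 247 CPM in Ad-EGFP libraries, with 1 of 5 called, Spp1. T and NK markers summed to 29.0 to 41.8 CPM in Ad-Dyrk1b livers and 18.1 to 24.8 CPM in Ad-EGFP libraries, with 1 of 6 tested markers called, Gzmb. At an unadjusted p under 0.05 in edgeR, 2 bile duct markers and 3 T and NK markers were higher. Among all tested genes edgeR called 12.2%, and 7.36% higher, so the marker counts are given as a description. Erythroid markers summed to 884 to 3675 CPM in Ad-Dyrk1b livers and 525 to 872 CPM in Ad-EGFP libraries, with 0 of 6 called by edgeR, DESeq2 or limma-voom and 0 at an unadjusted p under 0.05. Hepatocyte markers summed to 60675 to 75591 CPM in Ad-Dyrk1b livers and 76530 to 79992 CPM in Ad-EGFP libraries, with 0 of 6 called by edgeR or limma-voom, 1 by DESeq2 and 1 at an unadjusted p under 0.05. The closest hepatocyte sums were those of Ad-Dyrk1b replicate 3 and Ad-EGFP replicate 2, whose scaling factors in edgeR (TMM) were 0.963 and 1.05. Hepatocyte sums therefore lie apart with library size scaling and overlap once these factors are applied. With library size scaling the sums of the other marker lists overlapped between the groups. Endothelial markers reached 169 to 250 CPM in Ad-Dyrk1b libraries, against 120 to 191 CPM in Ad-EGFP libraries, with 0 of 6 called by edgeR, 1 by DESeq2 and 1 by limma-voom, and 2 higher at an unadjusted p under 0.05. Stellate markers reached 233 to 350 CPM in Ad-Dyrk1b, against 250 to 348 CPM in Ad-EGFP. Kupffer and monocyte markers reached 718 to 965 CPM in Ad-Dyrk1b, against 477 to 852 CPM in Ad-EGFP, with 1 of 6 called higher by edgeR (Ly6c2), 2 by DESeq2 and 2 by limma-voom, and 3 higher at an unadjusted p under 0.05. Neutrophil markers reached 11.3 to 53.7 CPM in Ad-Dyrk1b, against 7.60 to 44.4 CPM in Ad-EGFP, and B cell markers 1.30 to 3.72 CPM in Ad-Dyrk1b, against 1.78 to 3.12 CPM in Ad-EGFP. No marker of any list was at 0 in all libraries. The part of these cell markers in the clock results was not tested, and in bulk liver fewer cells of a type and less RNA per cell cannot be told apart.

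Of the 9 clock genes, 1 rose and 2 fell in Ad-Dyrk1b livers: Npas2 rose, and Ciart and Per1 fell. A gene was called at an adjusted p under 0.05 in edgeR's quasi-likelihood test, with Benjamini-Hochberg adjustment over 13201 tested genes. That is 3 of 9 clock genes, where 12.2% of all tested genes were called, 7.36% higher and 4.81% lower. The 1 rise, Npas2, belongs to a gene that passed the filter on low counts only through the group where it is high, so the count of 3 is given as a description. FPKM values of the groups did not overlap in 5 of the 9 genes, 1 higher (Npas2) and 4 lower (Ciart, Per1, Cry2 and Per3), where this held for 32.8% of all tested genes. The median log2 fold change was -0.18 over the 9 genes and -0.00498 over all tested genes. With 1 library removed, the number of clock genes called lower was 1 where that library was Ad-Dyrk1b 1, Ad-Dyrk1b 2 or Ad-EGFP 1, and 4 where it was Ad-Dyrk1b 3. The number called higher was 2 with Ad-Dyrk1b 1 removed. Among all called genes, 60.5% were higher here, 39.8% when libraries were scaled by their size alone and 44.3% on log2(FPKM + 1); no clock gene changed direction between these scalings.

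**Figure D1:**
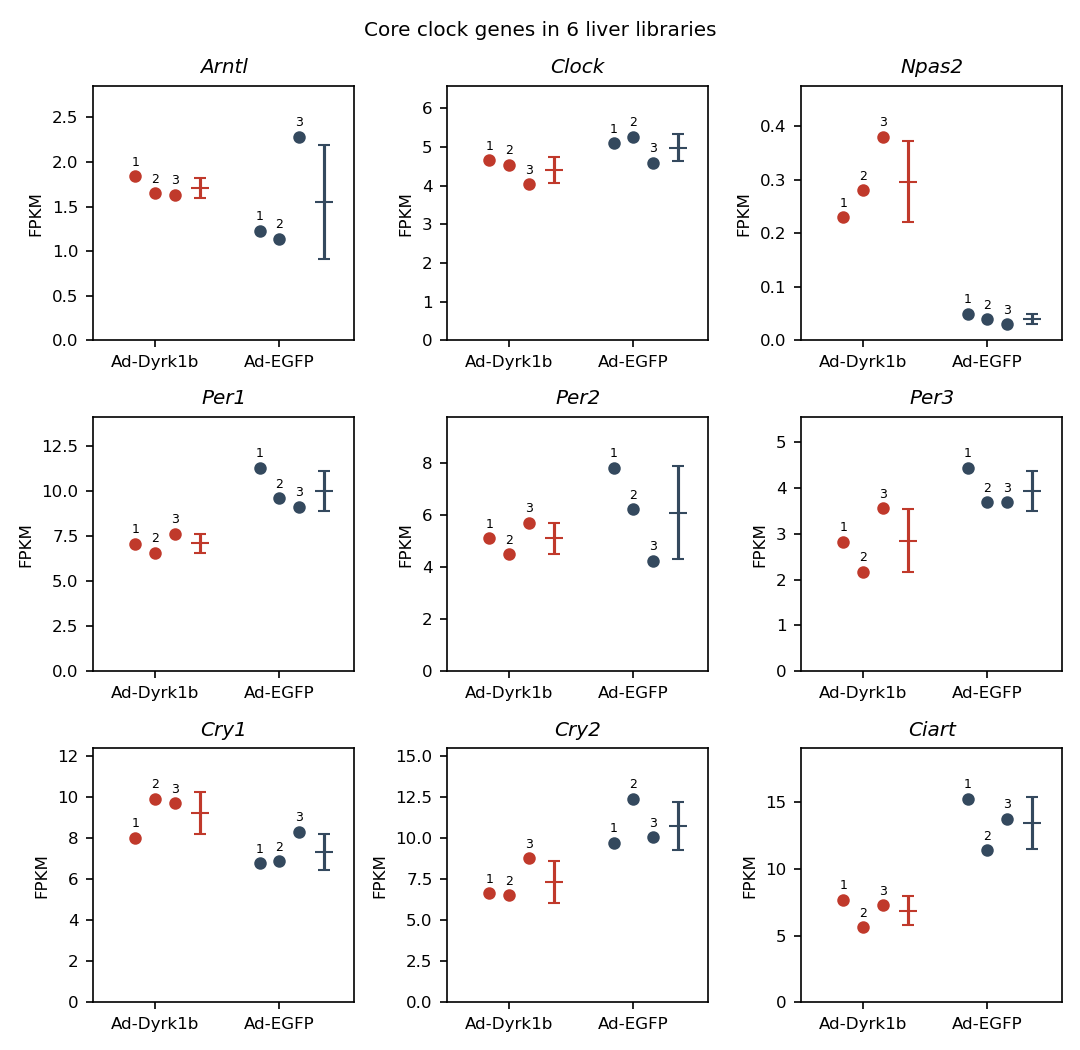
FPKM of each core clock gene in the 6 libraries (y axis, from 0; numbers are replicates), with the mean and SD (n = 3) beside the points. Npas2 lies higher and Ciart, Per1, Cry2 and Per3 lie lower in every Ad-Dyrk1b library than in every Ad-EGFP library, while Arntl, Clock, Per2 and Cry1 overlap.

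Among the activators, Npas2 had the largest edgeR log2 fold change of the 9 genes. Npas2 (ENSMUSG00000026077, chromosome 1, 39193731 to 39363236, plus strand) encodes the CLOCK relative that can take its place beside BMAL1. Ad-Dyrk1b livers gave 19, 24 and 29 counts, against 4, 3 and 2 counts from Ad-EGFP livers. The groups did not overlap, and all 6 values are low, at 0.23, 0.28 and 0.38 FPKM in Ad-Dyrk1b livers, against 0.05, 0.04 and 0.03 FPKM in Ad-EGFP livers. On the log2 scale Npas2 rose by 2.93 ± 0.49 (SE; edgeR adjusted p = 0.00248), with 2.72 to 3.19 when any 1 library was left out and the call kept each time. Summed over libraries, 72 counts in Ad-Dyrk1b livers and 9 in Ad-EGFP gave a CPM ratio of 7.4 (95% exact interval 3.69 to 16.8, which covers counting error only). Npas2 passed the filter on low counts only through the Ad-Dyrk1b libraries. Without that filter its log2 fold change was also 2.93 (edgeR adjusted p = 0.00119). The Ad-EGFP counts lie near the floor of 3 counts, so the size of this fold change is uncertain and depends on the scale. On log2(FPKM + 1) the limma fold change was 0.32 for Npas2 and -0.88 for Ciart. On log2(FPKM + 0.1) it was 1.49 for Npas2 and -0.96 for Ciart.

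Clock and Arntl were not called, and their groups overlapped. Clock (ENSMUSG00000029238, chromosome 5, 76209868 to 76304792, minus strand), the usual partner of BMAL1 in liver, stood at 4.66, 4.54 and 4.03 FPKM in Ad-Dyrk1b livers and 5.09, 5.26 and 4.59 FPKM in Ad-EGFP livers. Its log2 fold change was -0.11 ± 0.11 (edgeR adjusted p = 0.526), with a 95% interval of -0.34 to 0.12. Arntl (ENSMUSG00000055116, chromosome 7, 113207465 to 113314126, plus strand), which encodes BMAL1, stood at 1.84, 1.65 and 1.63 FPKM in Ad-Dyrk1b livers and 1.23, 1.14 and 2.28 FPKM in Ad-EGFP livers. The 3 Ad-Dyrk1b values lay close together, between the pair of low Ad-EGFP values and the high value of Ad-EGFP replicate 3. The log2 fold change of Arntl was 0.26 ± 0.28 (edgeR adjusted p = 0.585), with a 95% interval of -0.35 to 0.87. Without Ad-EGFP replicate 3 it was 0.69 (edgeR adjusted p = 0.109), and without Ad-EGFP replicate 1 or 2 it was 0.12 or 0.051 (edgeR adjusted p = 0.856 and 0.931).

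Among the repressors, Ciart showed the clearest fall. Ciart (ENSMUSG00000038550, chromosome 3, 95878503 to 95882251, minus strand), whose product CHRONO binds BMAL1 and represses it, stood at 7.69, 5.62 and 7.27 FPKM in Ad-Dyrk1b livers and 15.2, 11.4 and 13.7 FPKM in Ad-EGFP livers. All 3 Ad-Dyrk1b libraries lay below all 3 Ad-EGFP libraries, with means of 6.86 ± 1.09 FPKM for Ad-Dyrk1b and 13.4 ± 1.94 FPKM for Ad-EGFP (SD, n = 3 each). Ciart fell by 0.84 ± 0.18 on the log2 scale (edgeR adjusted p = 0.00897), so its level in Ad-Dyrk1b livers was 0.560 of that in Ad-EGFP livers. The call was kept when any 1 library was left out (edgeR adjusted p = 0.00531 to 0.0417).

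The Per genes, which encode the PERIOD proteins that carry CRY into the nucleus, all had log2 fold changes below 0, and 1 of the 3 was called. Per1 (ENSMUSG00000020893, chromosome 11, 69095217 to 69109960, plus strand) stood at 7.06, 6.57 and 7.62 FPKM in Ad-Dyrk1b livers and 11.3, 9.59 and 9.13 FPKM in Ad-EGFP livers, without overlap. It fell by 0.42 ± 0.12 on the log2 scale (edgeR adjusted p = 0.0384). With 1 library left out, its edgeR adjusted p ranged upward from 0.0457, and it missed the threshold when the library removed was Ad-Dyrk1b 1 (0.109), Ad-Dyrk1b 2 (0.113) or Ad-EGFP 1 (0.166). Per3 (ENSMUSG00000028957, chromosome 4, 151003652 to 151044665, minus strand) stood at 2.82, 2.17 and 3.55 FPKM in Ad-Dyrk1b livers and 4.43, 3.68 and 3.68 FPKM in Ad-EGFP livers, and the groups just failed to overlap in FPKM, while on the normalized log2 CPM scale Ad-Dyrk1b replicate 3 (0.15 above the mean of the 6 libraries) lay above Ad-EGFP replicates 2 and 3 (0.10 and 0.09). Its log2 fold change was -0.39 ± 0.17 (edgeR adjusted p = 0.151), with a 95% interval of -0.76 to -0.02 that is not adjusted for the number of genes. Without Ad-Dyrk1b replicate 3 it was -0.59 and called (edgeR adjusted p = 0.0409, highest 0.395 with 1 library left out). It was -0.25 with Ad-Dyrk1b 2 removed and -0.28 with Ad-EGFP 1 removed.

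Per2 (ENSMUSG00000055866, chromosome 1, 91415982 to 91459324, minus strand) stood at 5.11, 4.51 and 5.71 FPKM in Ad-Dyrk1b livers and 7.82, 6.24 and 4.25 FPKM in Ad-EGFP livers. Its lowest and its highest value were both in Ad-EGFP libraries. The log2 fold change was -0.18 ± 0.21 (edgeR adjusted p = 0.619), with a 95% interval of -0.64 to 0.29. It was -0.39 without Ad-EGFP replicate 3 and 0.064 without Ad-EGFP replicate 1 (edgeR adjusted p = 0.130 and 0.863).

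The cryptochrome genes, which encode the main repressors of BMAL1 and CLOCK, pointed in opposite directions, and neither was called. Cry1 (ENSMUSG00000020038, chromosome 10, 85131700 to 85185064, minus strand) stood at 8.04, 9.93 and 9.72 FPKM in Ad-Dyrk1b livers and 6.80, 6.89 and 8.33 FPKM in Ad-EGFP livers, where Ad-EGFP replicate 3 lay above Ad-Dyrk1b replicate 1. Its log2 fold change was 0.42 ± 0.14 (edgeR adjusted p = 0.0669), and it was called without Ad-Dyrk1b replicate 1 (0.54; edgeR adjusted p = 0.0321, highest 0.211 with 1 library left out). Cry2 (ENSMUSG00000068742, chromosome 2, 92403646 to 92434043, minus strand) stood at 6.64, 6.53 and 8.78 FPKM in Ad-Dyrk1b livers and 9.71, 12.4 and 10.1 FPKM in Ad-EGFP livers, without overlap. Its log2 fold change was -0.46 ± 0.14 (edgeR adjusted p = 0.0519). It was called with DESeq2 (adjusted p = 0.0392), with library size scaling, without the filter on low counts and without Ad-Dyrk1b replicate 3 (edgeR adjusted p = 0.0248, 0.0301 and 0.0142). Within each library, Cry1 per Cry2 in FPKM was 1.21, 1.52 and 1.11 in Ad-Dyrk1b livers and 0.700, 0.557 and 0.829 in Ad-EGFP livers, without overlap. Which of the 2 genes stands higher depends on the scaling to gene length. In FPKM Cry1 stood above Cry2 in each Ad-Dyrk1b library and below it in each Ad-EGFP library. In raw counts Cry1 and Cry2 had 465 and 503 in Ad-Dyrk1b 1, 602 and 514 in Ad-Dyrk1b 2, and 526 and 623 in Ad-Dyrk1b 3. Short exon stretches of Arntl and Cry2 overlap a gene on the other strand in the annotation, and since no strand setting is stated for the counting, reads of these stretches cannot be told apart.

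**Figure D2:**
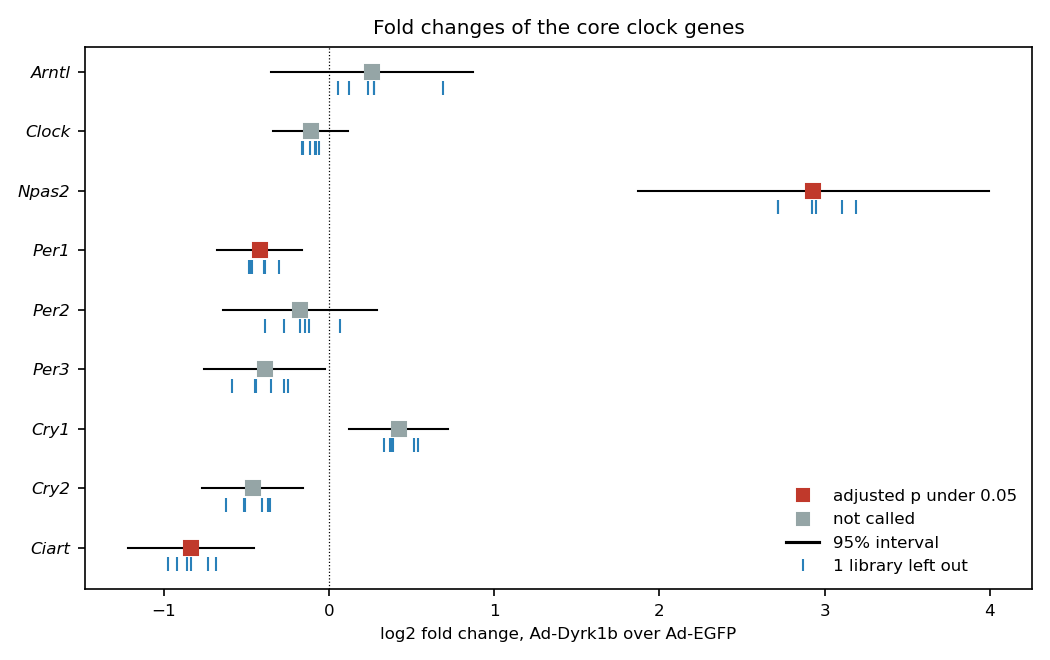
Log2 fold change of each core clock gene, Ad-Dyrk1b over Ad-EGFP (x axis), with its 95% interval (line, not adjusted for the number of genes) and the values with 1 library left out (blue ticks). Npas2 lies at 2.93, Ciart at -0.84 and Per1 at -0.42 (red, called), and the ticks of Per2 fall on both sides of 0.

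In the authors' deposited table the adjusted p was under 0.05 for 4 of the 9 clock genes, against 7.4% of all 22274 genes listed there, which include genes with no counts. The authors' deposited table gave 0.000891 for Ciart, 0.00115 for Npas2, 0.0417 for Per1 and 0.0483 for Cry2. For Cry1 and Per3 the authors' deposited table gave 0.0827 and 0.210.

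The order of the levels differed between the groups at its upper end. In Ad-Dyrk1b livers Cry1 had the highest mean, at 9.23 FPKM, and Cry2, Per1 and Ciart followed at 7.32, 7.08 and 6.86 FPKM. In Ad-EGFP livers Ciart had the highest mean, at 13.4 FPKM, and Cry2 followed at 10.7 FPKM, then Per1, and Cry1 at 7.34 FPKM. Neighbours in these upper 4 overlapped in their ranges, apart from Per1 and Cry1 in Ad-EGFP livers. Below them both groups had the same order, from Per2 and Clock, which overlapped each other, to Per3, Arntl and Npas2, which lay apart. Among tested genes, Cry1 stood at percentile 60.1 of mean FPKM in Ad-Dyrk1b livers and 52.8 in Ad-EGFP livers, and Ciart at 52.4 in Ad-Dyrk1b livers and 67.9 in Ad-EGFP livers. Arntl stood at percentile 21.9 in Ad-Dyrk1b livers and 19.9 in Ad-EGFP livers.

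The Ad-EGFP libraries did not share 1 pattern of Arntl and Per2. In Ad-EGFP replicate 3, Arntl was the highest and Per2 the lowest of all 6 libraries. Arntl per Per2 in FPKM was 0.360, 0.366 and 0.285 in Ad-Dyrk1b livers, against 0.157, 0.183 and 0.536 in Ad-EGFP livers. Arntl per Ciart was 0.239, 0.294 and 0.224 in Ad-Dyrk1b livers, against 0.0809, 0.10 and 0.166 in Ad-EGFP livers, without overlap. The groups lay apart in Ciart alone and overlapped in Arntl, so this ratio shows no further difference in Arntl. The highest value of a group divided by its lowest was 1.13 in Ad-Dyrk1b livers and 2.0 in Ad-EGFP livers for Arntl, and 1.27 in Ad-Dyrk1b livers and 1.84 in Ad-EGFP livers for Per2. For Clock it was 1.16 in Ad-Dyrk1b livers and 1.15 in Ad-EGFP livers. Ad-Dyrk1b replicate 3 had the highest Per1, Per2, Per3 and Cry2 of its group, and it was also the library with the highest erythroid markers, at 3675 CPM; the part of the erythroid markers in these values was not tested.

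**Figure D3:**
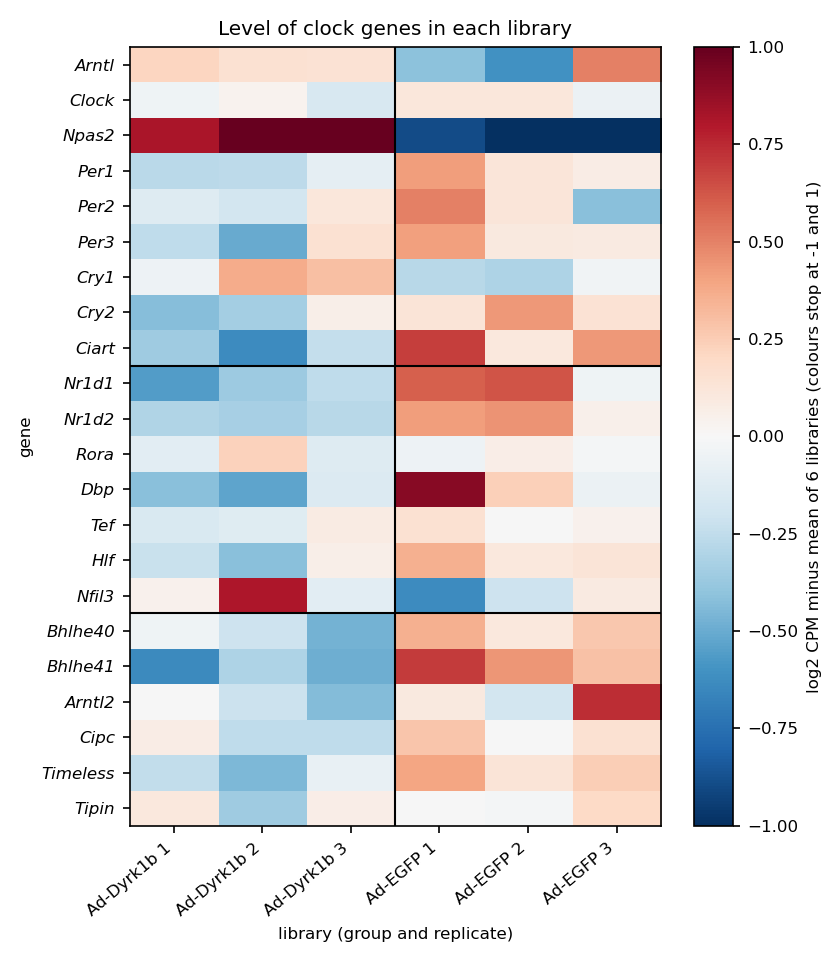
Level of the core clock genes, of 7 REV-ERB, ROR and PAR bZIP factors and of other loop modulators (rows, in that order, split by lines) in each library (columns), as log2 CPM minus the mean over the 6 libraries. Npas2 is high in the 3 Ad-Dyrk1b libraries, Ciart, Nr1d1 and Nr1d2 are low in them, and Ad-EGFP replicate 3 stands apart from the other Ad-EGFP libraries in Arntl (0.51) and Per2 (-0.42).

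Of the REV-ERB, ROR and PAR bZIP factors, 0 of 8 tested rose and 2 fell, where 12.2% of all tested genes were called. The median log2 fold change of these factors was -0.25. For rises the count was 0 at an unadjusted p under 0.05 and 0 with DESeq2 and limma-voom. Nr1d2, which encodes REV-ERB-beta, a repressor of Arntl and Npas2, stood at 11.7, 10.5 and 11.2 FPKM in Ad-Dyrk1b livers and 19.2, 20.2 and 15.2 FPKM in Ad-EGFP livers. It fell by 0.62 ± 0.12 (edgeR adjusted p = 0.00499), a call kept without any 1 library. Nr1d1, which encodes REV-ERB-alpha, stood at 2.63, 2.77 and 3.08 FPKM in Ad-Dyrk1b livers and 5.85, 6.20 and 3.87 FPKM in Ad-EGFP livers. It fell by 0.82 ± 0.19 (edgeR adjusted p = 0.0173), a call that did not hold when Ad-Dyrk1b 1 (0.0637), Ad-Dyrk1b 2 (0.0518), Ad-EGFP 1 (0.0624) or Ad-EGFP 2 (0.0590) was the library removed, lowest edgeR adjusted p = 0.00660. Dbp and Hlf, activators that bind D-boxes, were at -0.78 ± 0.23 for Dbp (edgeR adjusted p = 0.0537) and -0.38 ± 0.13 for Hlf (0.0756). Dbp was called with DESeq2 (adjusted p = 0.0135), and its value was -0.45 once Ad-EGFP replicate 1 was left out.

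Of 6 other E-box factors and loop modulators, 0 rose and 1 fell, where 12.2% of all tested genes were called. All 6 values were below 0, with a median of -0.50. For rises the count was 0 at an unadjusted p under 0.05 and 0 with DESeq2 and limma-voom. Bhlhe40, which encodes DEC1, a repressor that competes for E-boxes, stood at 27.5, 22.6 and 19.3 FPKM in Ad-Dyrk1b livers and 35.9, 32.2 and 34.95 FPKM in Ad-EGFP livers. It fell by 0.48 ± 0.12 (edgeR adjusted p = 0.0246), a call that did not hold after removal of Ad-Dyrk1b 2 (0.0636), Ad-Dyrk1b 3 (0.0783), Ad-EGFP 1 (0.0908) or Ad-EGFP 3 (0.0693), lowest edgeR adjusted p = 0.0187. Its relative Bhlhe41, at under 1 FPKM in every library, had -1.06 ± 0.35 (edgeR adjusted p = 0.0691). Timeless had -0.52 ± 0.16 (edgeR adjusted p = 0.0555), and Cipc, which encodes an inhibitor of CLOCK, had -0.28 ± 0.12 (edgeR adjusted p = 0.152).

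A pair of lists held genes that act on the PER and CRY proteins, and 12.2% of all tested genes were called. Of 14 kinases and phosphatases 0 rose and 1 fell (median -0.13), and of 10 genes of the ubiquitin machinery 0 rose and 1 fell (median -0.15). For rises in both lists the count was 0 at an unadjusted p under 0.05 and 0 with DESeq2 and limma-voom. Csnk1d, a casein kinase that phosphorylates PER, fell by 0.36 ± 0.10 (edgeR adjusted p = 0.0359). With 1 library left out, however, it stayed under the threshold in 1 of 6 fits, the one lacking Ad-EGFP 1 (edgeR adjusted p = 0.0391 to 0.115). Btrc, which encodes a ubiquitin ligase subunit that binds phosphorylated PER, fell by 0.45 ± 0.13 (edgeR adjusted p = 0.0420). It likewise stayed under the threshold in 1 of 6, the fit lacking Ad-EGFP 2 (edgeR adjusted p = 0.0441 to 0.131). Dyrk1a and Gsk3b, the CRY2 kinases named above, had -0.32 ± 0.14 and -0.22 ± 0.11 (edgeR adjusted p = 0.155 and 0.214). Dyrk1a stood at 4.61, 3.98 and 4.08 FPKM in Ad-Dyrk1b livers and 6.49, 6.07 and 4.57 FPKM in Ad-EGFP livers, and the groups overlapped at the lowest Ad-EGFP library.

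Of 21 coactivators and corepressors of the clock, 1 rose and 4 fell (median -0.21), against 7.36% of all tested genes called higher and 4.81% lower. Rack1, a scaffold protein that is also part of the ribosome, rose by 0.42 ± 0.11 (edgeR adjusted p = 0.0264). The RNA helicase gene Ddx5 fell by 0.48 ± 0.11, the histone methyltransferase gene Suv39h1 by 0.52 ± 0.14 and the acetyltransferase gene Crebbp by 0.44 ± 0.12 (edgeR adjusted p = 0.0148, 0.0272 and 0.0265). Sfpq, a partner of PER named after its values were seen, fell by 0.39 ± 0.11 (edgeR adjusted p = 0.0329). Each of these 5 calls was lost in at least 2 of the 6 fits with 1 library left out, at adjusted p values up to 0.0934 for Rack1 (without Ad-EGFP replicate 1), 0.0757 for Ddx5 (without Ad-EGFP replicate 1), 0.112 for Suv39h1 (without Ad-EGFP replicate 1), 0.0919 for Crebbp (without Ad-EGFP replicate 1) and 0.121 for Sfpq (without Ad-Dyrk1b replicate 2), all from edgeR. Rack1 was also lost with library size scaling (edgeR adjusted p = 0.0681) and on log2(FPKM + 1) and log2(FPKM + 0.1) (limma adjusted p = 0.0989 and 0.0980). Crebbp was lost on the same FPKM scales (limma adjusted p = 0.0624 and 0.0619).

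The factors that feed hormone and stress signals into Per transcription were not called, with 0 of 7 in edgeR, DESeq2 and limma-voom and 1, Crtc1, lower at an unadjusted p under 0.05. Among all tested genes edgeR called 12.2%, so 0 of 7 is given as a description. Crtc1, which encodes a CREB coactivator, had -0.50 ± 0.17 (edgeR adjusted p = 0.0758), and was called at -0.58 with library size scaling (edgeR adjusted p = 0.0495). Creb1 had -0.14 ± 0.11 (edgeR adjusted p = 0.465). Of 11 targets of glucocorticoids, heat and immediate-early signals 0 rose and 1 fell (median 0.03), where 12.2% of all tested genes were called. For rises among these targets the count was 0 at an unadjusted p under 0.05 and 0 with DESeq2 and limma-voom. The gene that fell was Klf9, a glucocorticoid-induced repressor, by 0.52 ± 0.13 (edgeR adjusted p = 0.0191). Removing Ad-Dyrk1b 1 (0.0649), Ad-Dyrk1b 3 (0.0622) or Ad-EGFP 3 (0.0584) ended that call, with a lowest edgeR adjusted p = 0.00559. Fkbp5, another glucocorticoid target, had -0.14 ± 0.14 (edgeR adjusted p = 0.547), and Sgk1 had 0.28 ± 0.13 (edgeR adjusted p = 0.189).

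**Figure D4:**
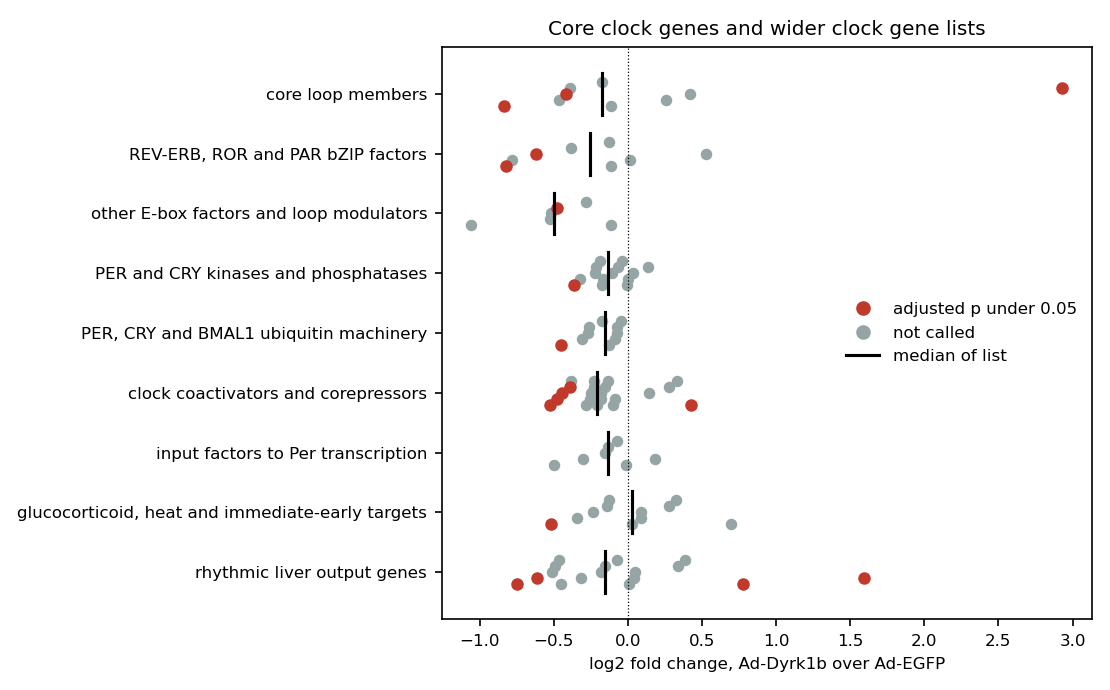
Log2 fold change, Ad-Dyrk1b over Ad-EGFP (x axis), of each tested gene of the core clock loop and of 8 wider clock lists (rows); red points were called and black bars are list medians. Within the core loop Npas2 lies apart at 2.93, and the medians of the lists lie between -0.50 and 0.03.

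Among 17 genes with rhythmic expression in liver, 2 rose and 2 fell (median -0.15), against 7.36% of all tested genes called higher and 4.81% lower. Elovl3, a fatty acid elongase gene, stood at 9.19, 9.02 and 8.80 FPKM in Ad-Dyrk1b livers and 2.05, 3.54 and 4.13 FPKM in Ad-EGFP livers, and rose by 1.6 ± 0.21 (edgeR adjusted p = 0.000572). Insig2, which encodes a brake on sterol synthesis, rose by 0.78 ± 0.15 (edgeR adjusted p = 0.00577). Cdkn1a, which encodes the cell cycle inhibitor p21, fell by 0.75 ± 0.11 (edgeR adjusted p = 0.000931), and stood at 79.0, 78.3 and 73.7 FPKM in Ad-Dyrk1b livers and 123, 142 and 150 FPKM in Ad-EGFP livers. The fourth is the glycogen synthase gene Gys2, at 31.7, 27.1 and 36.2 FPKM in Ad-Dyrk1b livers and 54.1, 55.7 and 47.0 FPKM in Ad-EGFP livers. Gys2 fell by 0.61 ± 0.13 (edgeR adjusted p = 0.0103). These 4 calls were kept when any 1 library was left out, and the groups did not overlap in any of the 4 genes.

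Across the 6 libraries, the genes whose log2 CPM followed Npas2 most closely were Slco2b1, Sult2a8, Hao2, Cyp2c40 and Ppargc1b (Pearson r = 0.996 to 0.998, of 11296 tested genes with a mean of 1 FPKM or more). Slco2b1 encodes an organic anion transporter and Hao2 a hydroxyacid oxidase, and single copies of the Sult2a and Cyp2c families are uncertain where reads match several genes. The genes that followed Ciart most closely were Prr14, Smim10l1, Prim1, Mpst and Ift74 (Pearson r = 0.995 to 0.997). These correlations describe 6 libraries in 2 groups, and the groups differ in Npas2 and in Ciart. The genes were picked for the highest r, so values near 1 are a description and no test. Npas2 also rests on 2 to 4 counts per Ad-EGFP library. Of the genes picked, Ppargc1b, Smim10l1 and Prim1 were not called (edgeR adjusted p = 0.196, 0.0878 and 0.109).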

How the data were processed

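For each gene the deposited file gives raw counts and FPKM in every library, per the file headers. Mean FPKM per group, a log2 ratio, a p-value and an FDR, also by the authors, stand beside them. Per the submitters' processing notes, the build was mm10 and DESeq2 was used. The aligner, counter and annotation were not given in the sources used here. Libraries were grouped by their titles and columns assigned by name.

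Counts were tested with edgeR 4.0.16 (R 4.3.3): filterByExpr (minimum count 10, minimum total 15), TMM scaling, glmQLFit with robust set and the two-sided glmQLFTest on 13201 genes, with Benjamini-Hochberg adjustment over all of them. The value after ± is the standard error for fold changes and the SD for FPKM. That standard error was worked back from the log2 fold change and the F statistic of the test, and the 95% intervals use it. The fit was also run on simulated data built from these libraries, where it recovered 86.9% of 2-fold changes. False calls made up 6.28% of its calls there. In that simulation 196 of 13097 genes were changed, each by 2-fold or more, where 1607 genes were called in the real data. Changes under 2-fold, such as those of the clock genes other than Npas2, were not simulated. Alternatives used DESeq2 1.42.0 and limma 3.58.1. Gene coordinates come from GENCODE M21 and promoters from RefSeq.

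The clock genes and lists were chosen with earlier results of these data known. Named genes are the 9 clock genes, Dyrk1b, up to 4 genes per list with the smallest p, and the 5 genes most like the clock gene with the smallest p in each direction; Sfpq was added after its values were seen, as were the marker genes Spp1, Gzmb and Ly6c2. Of the listed clock genes, 1 symbol was not matched and Rorb did not pass the filter. Single values of some list genes are not reported here. With 3 counts as the floor, the depth gives 0.150 to 0.173 CPM per library, for counting error only.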

Additional observations from a re-analysis of the deposited data

How the results depend on the processing

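The direction of 8 of the 9 clock genes held under every alternative run; Per2 turned to 0.064 without Ad-EGFP replicate 1. With 1 library left out, log2 fold changes ranged from 0.051 to 0.69 for Arntl, -0.17 to -0.061 for Clock, 2.72 to 3.19 for Npas2, -0.98 to -0.69 for Ciart, -0.49 to -0.30 for Per1, -0.39 to 0.064 for Per2, -0.59 to -0.25 for Per3, 0.33 to 0.54 for Cry1 and -0.62 to -0.36 for Cry2. The number of clock genes called ranged from 1 to 2 higher and from 1 to 4 lower, and among all tested genes from 612 to 800 higher and from 294 to 461 lower. The all-gene count moved by over 1.5 times for rises with Ad-Dyrk1b 2 (612), Ad-EGFP 1 (615) or Ad-EGFP 3 (641) removed, against 972. For falls it did so with Ad-Dyrk1b 1 (381), 2 (326) or 3 (396) or Ad-EGFP 1 (294) or 3 (414) removed, against 635. Fewer samples enter these fits. Cry2 passed the threshold at -0.55 with library size scaling, -0.47 without the filter on low counts, -0.46 with DESeq2 and -0.47 with the replicate block. The number of genes called higher was 566 on log2(FPKM + 1) and 569 on log2(FPKM + 0.1), and 1051 were called lower with library size scaling; the cause was not tested. On log2(FPKM + 1) the fold change of Npas2 was 0.32, since the pseudocount exceeds its level. Hspa1b, at 0.33, ranged from -6.65e-05 to 0.52 with 1 library left out, the lowest without Ad-Dyrk1b replicate 2. Same-numbered libraries of the 2 groups correlated at r = 0.024, 0.17 and 0.11 in their deviations from the group means. Ad-Dyrk1b replicate 1 correlated best with Ad-EGFP replicate 3 (r = 0.085), and every other library correlated best with its own number. The labels state no pairing, and deviations from means of 3 libraries cannot decide whether the numbers pair them. With the replicate number as a block, 1109 genes were higher and 774 lower, and of the 9 clock genes the call changed for Cry2 (edgeR adjusted p = 0.0471) and, among the other named genes, for Timeless (0.0483). Low counts limit Npas2 most, with 2 to 4 counts per Ad-EGFP library.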
